A study of Mus musculus with 6 samples.

Results

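The genes examined here were 10 amino acid transporters of the plasma membrane, chosen by symbol: *Slc3a2*, *Slc7a1*, *Slc7a3*, *Slc7a5*, *Slc7a6*, *Slc7a11*, *Slc1a4*, *Slc1a5*, *Slc38a1* and *Slc38a2*. They were looked up by Entrez ID in an RNA-seq table of 13426 genes, in which 9 of the 10 had a row. *Slc7a11*, the cystine and glutamate exchanger, had none, so its RNA level was not analysed here. The RNA came from sorted early LPre-B (large pre-B) cells of mouse bone marrow, the stage at which a V segment is joined to the D and J segments already rearranged at the *Igh* locus. The gate held B220+, CD43+ and CD2- cells without surface IgM, from age-matched adult mice of both sexes. Control (Ctrl) mice were *Upf1* Flox/Flox with a wild-type Mb1 locus (Mb1 +/+), and *Upf1*-cKO mice were *Upf1* Flox/Flox with Mb1 Cre/+, so both groups carried the floxed alleles. Cre is expressed from the Mb1 (*Cd79a*) locus in B lineage cells and removes internal exons of *Upf1*, and it leaves the cKO mice with 1 intact *Cd79a* allele. Each group had 3 libraries. The RNA helicase UPF1 is required for nonsense-mediated mRNA decay (NMD), and the libraries address how its loss changes the RNA of these cells. The p-values measure the spread between these libraries.

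Growing lymphoid cells take up more amino acids than resting ones, and they do so through a small number of carriers. SLC3A2 (the CD98 heavy chain) is a single-pass glycoprotein that brings SLC7 light chains to the cell surface. Among its light chains, SLC7A5 (LAT1) carries large neutral amino acids such as leucine, SLC7A6 (y+LAT2) exchanges cationic for neutral amino acids, and SLC7A11 (xCT) imports cystine. SLC7A1 (CAT1) and SLC7A3 (CAT3) carry arginine and lysine without a heavy chain, SLC1A4 (ASCT1) and SLC1A5 (ASCT2) exchange small neutral amino acids and glutamine, and SLC38A1 (SNAT1) and SLC38A2 (SNAT2) take up glutamine and alanine with sodium. Several of these genes are known to be induced by ATF4, the transcription factor that acts when amino acids run short.

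Of the 9 transporter genes with a row, 7 were higher in the cKO-labelled libraries, 0 were lower and 2 were not called at an adjusted p below 0.05 (limma on log2(value + 1), Benjamini-Hochberg over all 13426 genes). By the same rule 27.7% of all genes were higher and 25.0% were lower, or 52.7% in either direction. In every gene of the table at least 3 libraries reached 0.537 normalised reads. *Slc7a3* reached this level in all 3 cKO-labelled libraries but not in all 3 Ctrl libraries, so it has a row through the group in which it is high and its call is no support. The other 8 genes reached it in every Ctrl library, and 6 of those 8 were higher. The 7 genes called higher were those in which every cKO-labelled library exceeded every Ctrl library, a pattern that 30.9% of all genes showed, with the reverse pattern in 28.0%. The median log2 fold change was 0.53 over the 9 genes and 0.01 over all genes. The rises were unequal in size: *Slc1a4* and *Slc7a3* were called and passed 2 on the log2 scale, as did 1.14% of all genes, and the other 7 stayed below 1. Of all genes 7.50% were called and passed 1.

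These values are normalised reads, that is, reads plus 0.5 divided by a library size that the authors had adjusted, per 1e6 reads. Recovered reads totalled between 9732498 and 11006834 per library. *Upf1* itself was not lower in the cKO-labelled libraries (means of 241 ± 32.3 for Ctrl against 297 ± 12.7, SD, n = 3, log2 fold change 0.31, limma adjusted p 0.00696). The difference was 0.19 without Ctrl library 2, and it did not pass with median centring (0.20, limma adjusted p 0.0645) or with limma without trend or robust estimation (adjusted p 0.0685). The *Upf1* row sums the whole gene, which overlaps *Gdf1* and *Cers1*, and does not resolve the removed exons, so it alone does not check the labels. Separately, the study reported UPF1 protein to be lost from early LPre-B and pro-B cells of its cKO mice, which was not measured on these libraries. Of 10 B lineage markers 2 were higher and 3 were lower, and their summed level was between 3783 and 3859 normalised reads for Ctrl and between 2709 and 2795 for cKO-labelled libraries. *Pax5* and *Ebf1*, transcription factors of the lineage, had group means between 216 and 427 and were not called. *Cd79a*, of which the Mb1 Cre/+ mice keep 1 intact allele, went from 221 ± 11.4 to 73.3 ± 1.85 (SD, n = 3), and each cKO-labelled library was below each Ctrl library. Of 5 markers of later stages 4 were lower, with summed levels of 265 to 269 for Ctrl and 46.9 to 61.1 for cKO-labelled libraries, although *Cd2*, the marker excluded by the gate, had a Ctrl mean of only 2.9 ± 1.13. The largest part of that sum was *Cd22*, with means of 207 ± 2.04 for Ctrl and 28.5 ± 6.24 for cKO-labelled libraries (SD, n = 3). Next came *Igkc*, at 41.2 ± 2.84 and 21.1 ± 1.41. Myeloid markers moved with the groups too. The summed level of their list of 10 genes was between 68.5 and 159 in Ctrl and between 311 and 429 in cKO-labelled libraries, and 4 of the 10 were higher and 1 was lower. *S100a9*, a calcium-binding protein gene of neutrophils, was at 21.9, 2.17 and 2.93 in Ctrl libraries 1, 2 and 3 and at 112, 86.1 and 83.1 in the cKO-labelled ones. *Ngp*, a neutrophil granule gene, was at 44.9, 2.68 and 2.23 in Ctrl and at 148, 128 and 95.7 in the cKO-labelled libraries. Its log2 fold change of 3.91 was the largest of the list but did not pass (limma adjusted p 0.0572), and neither did that of *Camp* (2.66, limma adjusted p 0.0567), with means of 3.38 ± 4.58 and 18.4 ± 3.4 (SD, n = 3). Ctrl library 1 was the highest Ctrl library for *S100a9*, *Ngp* and *Camp*. *Mpo* had means of 4.81 ± 3.34 and 5.98 ± 1.38 and *Prtn3* of 0.901 ± 0.227 and 0.915 ± 0.681 (SD, n = 3), neither called. *Elane*, 1 of the 4 higher, had means of 0.521 ± 0.35 and 1.87 ± 0.374 and, like *Camp*, a row through the cKO-labelled group. Of 3 plasma cell markers with a row 2 were lower, with summed levels of 28.4 to 40.3 for Ctrl and 14 to 18.2 for cKO-labelled libraries. Of 3 plasmacytoid dendritic markers 2 were higher (1.64 to 3.35 against 5.36 to 5.71), *Cox6a2* with a row through the cKO-labelled group. No erythroid, megakaryocytic, T or NK marker with a row was called. The part of all these markers in the transporter values was not tested, and in bulk RNA a change in the share of a cell type cannot be told apart from a change in RNA per cell.

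**Figure D1:**
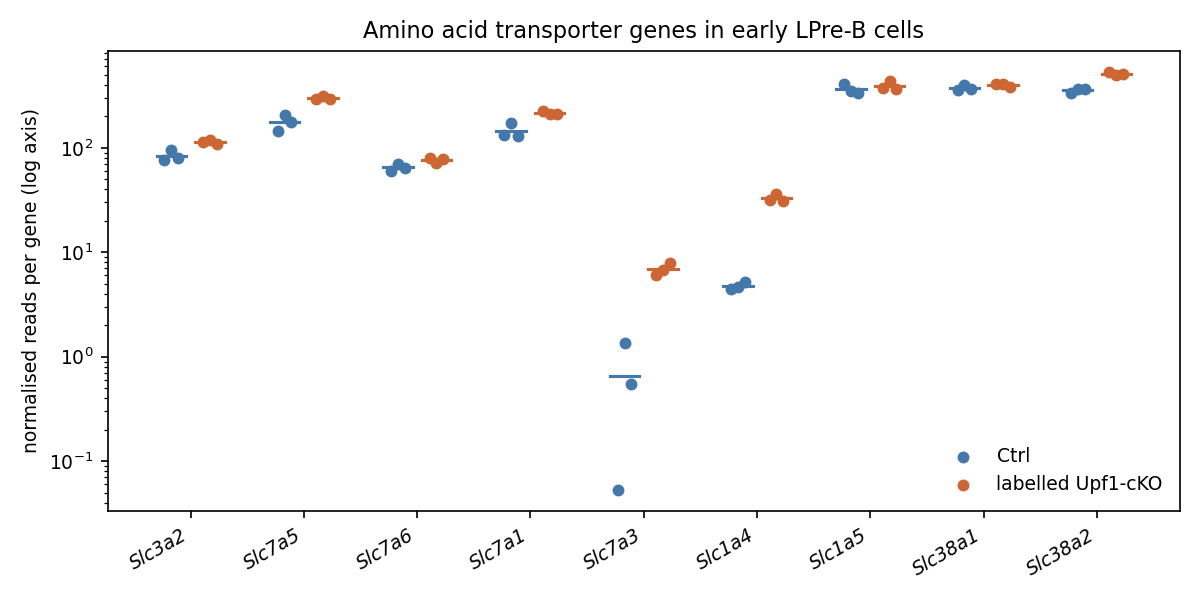
Normalised reads (log axis) of the 9 transporter genes in each of the 3 Ctrl and 3 cKO-labelled libraries, with points for libraries and bars for group means. *Slc1a4* and *Slc7a3* show the widest gaps, and *Slc1a5* and *Slc38a1* are the genes whose groups overlap.

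*Slc1a4*, which encodes the alanine, serine, cysteine and threonine exchanger ASCT1, had the largest log2 fold change of the 9 with the pseudocount of 1. *Slc7a3* exceeded it with a pseudocount of 0.1 (3.73 against 2.76), on recovered reads with voom, edgeR and DESeq2, and without Ctrl library 2 (2.62 against 2.55). *Slc1a4* was at 4.41, 4.70 and 5.21 normalised reads in Ctrl libraries 1, 2 and 3 and at 31.4, 36.5 and 31.0 in the cKO-labelled libraries 1, 2 and 3. The groups were far apart and each was tight, with 41 to 52 reads per Ctrl library and 321 to 404 per cKO-labelled library. The mean rose from 4.77 ± 0.408 to 32.9 ± 3.06 (SD, n = 3), a ratio of 6.90 and a log2 fold change of 2.55 (SE 0.14, limma adjusted p 7.29e-11). Only 62 of the 13426 genes had a larger log2 fold change. The gene lies on chromosome 11 (20302180 to 20332713, GRCm38, minus strand) and no other RefSeq gene overlaps it.

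Its close relative *Slc1a5*, which encodes the glutamine exchanger ASCT2, was the transporter gene with the most reads per length. It had 408, 353 and 332 normalised reads in the Ctrl libraries and 373, 431 and 367 in the cKO-labelled libraries. The groups overlapped, with means of 364 ± 39.2 and 390 ± 35.7 (SD, n = 3), and the log2 fold change of 0.10 did not pass the test (limma adjusted p 0.337, 95% interval from -0.08 to 0.28). Within a library, the log2 ratio of *Slc1a4* to *Slc1a5* was -6.53, -6.23 and -5.99 in Ctrl and -3.57, -3.56 and -3.57 in the cKO-labelled libraries. The ratio was therefore 6.43-fold higher in the latter, a difference of 2.68 on the log2 scale. Its exact two-sided permutation p was 0.1, the smallest that 3 libraries against 3 allow, and the adjusted p over the 7 ratios examined was also 0.1. A ratio within a library does not depend on how libraries are scaled.

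*Slc7a3*, the gene of the arginine transporter CAT3, showed the largest ratio of means, but from very few reads. Ctrl libraries 1, 2 and 3 held 0, 13 and 5 reads and the cKO-labelled libraries 61, 75 and 93. In normalised reads these were 0.0531, 1.36 and 0.546 against 6, 6.81 and 7.88, so that the groups did not overlap and the Ctrl libraries were near the lower limit of the table. The fitted log2 fold change was 2.33 (SE 0.26) with the pseudocount of 1 and 3.73 with a pseudocount of 0.1. On recovered reads it ran from 3.46 with edgeR to 4.31 with voom, with DESeq2 between them. No p is given as support, since the gene has a row through the cKO-labelled group. RefSeq places *Slc7a3* on chromosome X (101079146 to 101090452, minus strand), where its 5' end overlaps *Snx12* on the same strand. *Snx12*, a sorting nexin gene, went the other way, from 38.7 ± 3.23 to 20.8 ± 1.57 normalised reads (SD, n = 3, log2 fold change -0.86, limma adjusted p 3.65e-06).

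*Slc7a1*, the gene of the widespread arginine and lysine transporter CAT1, was read far more often. Its values were 133, 171 and 129 in Ctrl and 223, 211 and 209 in the cKO-labelled libraries, which were all higher. The mean rose from 144 ± 23.2 to 214 ± 7.84 normalised reads (SD, n = 3), with a log2 fold change of 0.58 (SE 0.094, limma adjusted p 4.92e-05). The log2 ratio of *Slc7a1* to *Slc7a3* differed by -3.75 between the groups (cKO-labelled minus Ctrl, given as a description with no p, as for *Slc7a3* itself), but by -1.75 with a pseudocount of 1 and by -2.46 without Ctrl library 1, which had 0 *Slc7a3* reads. Per kilobase, *Slc7a1* remained the more abundant of this pair in the cKO-labelled libraries, at 29.8 ± 1.09 against 2.51 ± 0.343 normalised reads per kilobase of the coding transcript (SD, n = 3).

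The heavy chain gene *Slc3a2* and its light chain genes *Slc7a5* and *Slc7a6* were all higher, by different amounts. *Slc3a2* had 76.8, 95.2 and 79.0 normalised reads in Ctrl and 113, 119 and 108 in the cKO-labelled libraries, and the groups did not overlap. Its log2 fold change was 0.44 (SE 0.091, limma adjusted p 0.000504). *Slc7a5*, the LAT1 gene, had 144, 207 and 177 in Ctrl and 296, 311 and 293 in the cKO-labelled libraries, so that the lowest of the latter was well above the highest Ctrl value. Its log2 fold change was 0.78 (SE 0.10, limma adjusted p 6.28e-06). *Slc7a6*, the y+LAT2 gene, had 59.3, 70.6 and 64.7 in Ctrl and 79.9, 72.1 and 78.9 in the cKO-labelled libraries. Here the groups nearly touched, and the log2 fold change of 0.25 (SE 0.091, limma adjusted p 0.0295) did not pass when libraries were centred on their medians (0.14, adjusted p 0.206), nor without Ctrl library 1 (0.18, adjusted p 0.0947), cKO-labelled library 1 (0.22, adjusted p 0.115) or cKO-labelled library 3 (0.23, adjusted p 0.105). DESeq2 on recovered reads (0.23, adjusted p 0.0607) and limma without trend or robust estimation (adjusted p 0.083) did not call *Slc7a6* either.

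The balance of light chain to heavy chain transcripts was then followed within each library. The log2 ratio of *Slc7a5* to *Slc3a2* was 0.91, 1.12 and 1.16 in Ctrl and 1.39, 1.38 and 1.44 in the cKO-labelled libraries, a difference of 0.34. That of *Slc7a6* to *Slc3a2* went from -0.36 ± 0.07 to -0.56 ± 0.15 (SD, n = 3), a difference of -0.20, which was -0.11 without cKO-labelled library 2. The *Slc7a5* to *Slc7a6* ratio accordingly moved by 0.54, a 1.45-fold shift toward *Slc7a5*. The groups did not overlap in any of these ratios, and each had an exact permutation p of 0.1 and an adjusted p of 0.1, which the design cannot go below.

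**Figure D2:**
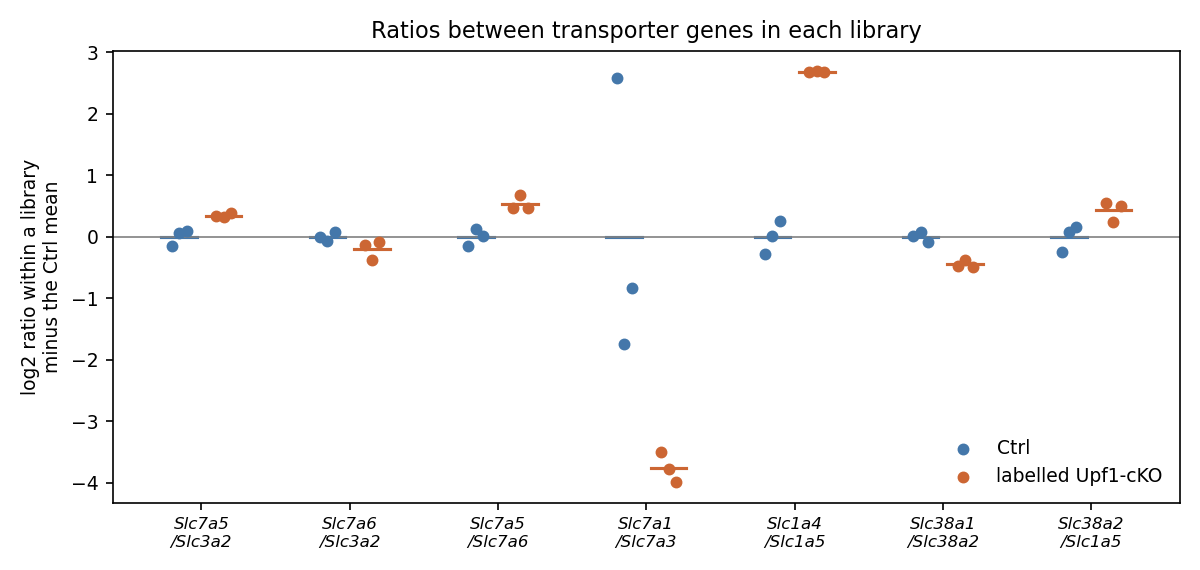
Log2 ratios between transporter genes within each library, shown as the difference from the Ctrl mean of that ratio, with points for the 3 Ctrl and 3 cKO-labelled libraries and bars for group means. The groups are apart in all 7 ratios; the *Slc7a1* to *Slc7a3* ratio spreads widely in Ctrl, where 1 library had 0 *Slc7a3* reads.

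*Slc3a2* (chromosome 19, 8706882 to 8723369, minus strand) lies head to head with *Snhg1* (8723487 to 8726326, plus strand), a non-coding gene with small nucleolar RNAs in its introns. The 117 bases between their RefSeq starts are shown because the transcripts that start on either side of them changed by very different amounts. They occupy chr19:8723370-8723486 of GRCm38.p6 and are written 5′ to 3′ on the plus strand, toward *Snhg1*.
Slc3a2 to Snhg1: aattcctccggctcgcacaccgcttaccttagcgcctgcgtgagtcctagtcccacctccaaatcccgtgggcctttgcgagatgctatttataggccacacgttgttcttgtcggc
*Snhg1* had 59.2, 70.9 and 78.9 normalised reads in Ctrl and 605, 541 and 640 in the cKO-labelled libraries, a log2 fold change of 3.08 (SE 0.096, limma adjusted p 3.48e-14), against 0.44 for *Slc3a2*. Reads were counted without strand, but the annotated spans of the pair do not overlap. Near *Slc7a5*, the start of the non-coding gene *BC048644* lies 139 bases away on the other strand, and GENCODE release M21 draws a longer coding model, *Gm20388*, across the locus. Neither has a row in the table, and without strand reads of overlapping genes cannot be told apart.

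The sodium-coupled transporters *Slc38a1* and *Slc38a2* are neighbours on chromosome 15, at 96571418 to 96643438 and 96687392 to 96699728, and had about equal reads in Ctrl. *Slc38a2* had 338, 363 and 363 normalised reads in Ctrl and 535, 498 and 508 in the cKO-labelled libraries, which were all higher. Its log2 fold change was 0.53 (SE 0.07, limma adjusted p 4.12e-06). *Slc38a1* had 361, 403 and 363 in Ctrl and 408, 404 and 382 in the cKO-labelled libraries, and the groups overlapped. Its log2 fold change of 0.08 did not pass the test (limma adjusted p 0.35, 95% interval from -0.07 to 0.24). The log2 ratio of *Slc38a1* to *Slc38a2* went from 0.10, 0.15 and 0.00 in Ctrl to -0.39, -0.30 and -0.41 in the cKO-labelled libraries (difference -0.45, exact permutation p 0.1, adjusted p 0.1). The log2 ratio of *Slc38a2* to *Slc1a5*, both of which carry glutamine, moved by 0.43 in favour of *Slc38a2* with the same p.

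How far the small differences can be read depends on the scaling of the libraries. With scaling to total reads, all 9 genes were called higher, but so were 38.5% of all genes (14.4% were lower), and the median over all genes moved to 0.19. With centring on the median log2 value of a library, 6 of the 9 were higher, against 22.3% of all genes (32.4% were lower). *Slc1a5* and *Slc38a1* then had log2 fold changes of -0.01 (limma adjusted p 0.954) and -0.03 (limma adjusted p 0.791). *Slc1a4*, *Slc7a5*, *Slc7a1*, *Slc38a2* and *Slc3a2* were called higher under each of the 15 alternatives run. Without Ctrl library 1, which had the most *S100a9* of the Ctrl libraries, 7 genes were again higher, but *Slc1a5* (0.19, limma adjusted p 0.0473) had replaced *Slc7a6* among them.

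**Figure D3:**
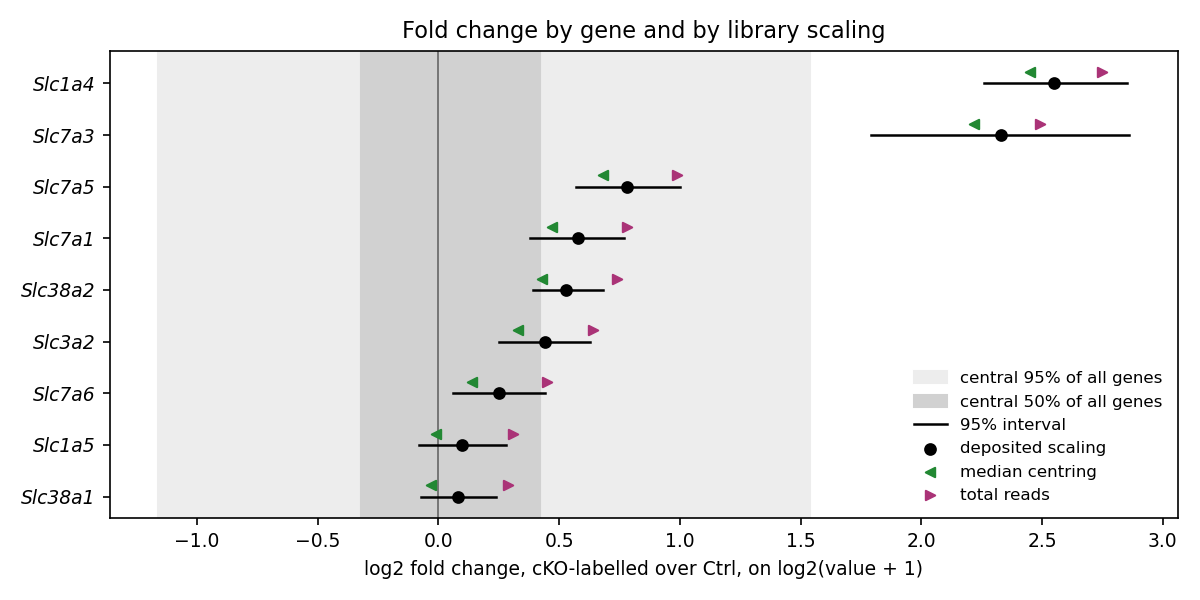
Log2 fold change of each transporter gene (cKO-labelled over Ctrl) with its 95% interval from limma, and the value after median centring or scaling to total reads, on shading that spans the central 50% (-0.32 to 0.42) and 95% (-1.16 to 1.54) of all genes. *Slc1a4* and *Slc7a3* lie outside the wider band under all 3 scalings.

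Levels of different genes were compared per kilobase of the longest coding transcript in GENCODE. In Ctrl libraries *Slc1a5* came first, at 132 ± 14.2 normalised reads per kilobase (SD, n = 3), followed by *Slc38a2* at 76.1 ± 3.15. *Slc38a1* (51.7 ± 3.26) and *Slc7a5* (50 ± 8.84) came next and did not differ beyond their spread. *Slc3a2* (29.7 ± 3.58), *Slc7a1* (20.1 ± 3.23) and *Slc7a6* (17.3 ± 1.5) followed, the last pair within their spread, and *Slc1a4* (1.22 ± 0.104) and *Slc7a3* (0.238 ± 0.241) were far lower. In the cKO-labelled libraries *Slc7a5* (85.4 ± 2.73) stood above *Slc38a1* (54.7 ± 1.89), and the other positions were as in Ctrl. The genes with the largest fold changes were thus the least abundant, and *Slc1a4* at 8.39 ± 0.780 was still below *Slc7a6* at 20.5 ± 1.13. With the length of all annotated exons in place of the coding transcript, *Slc7a5* came before *Slc38a2* in Ctrl and *Slc38a1* fell to the fifth place.

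Transcript features linked to NMD were counted in the same coding transcripts. None of the 9 genes had an exon junction more than 50 bases after its stop codon, a feature of 0.36% of the genes with a coding transcript. An annotated NMD transcript was present for 1 of the 9, *Slc7a6*, and for 29.4% of genes. At least 1 ATG upstream of the coding start was present in 4 of the 9 and in 49.6% of genes. *Slc38a1* had 8, *Slc7a3* had 4, and *Slc7a1* and *Slc1a5* had 1 each, while *Slc1a4*, *Slc7a5*, *Slc38a2*, *Slc3a2* and *Slc7a6* had none. The 2 genes that were not called, *Slc38a1* and *Slc1a5*, were thus among the 4 with an upstream ATG, beside *Slc7a1* and *Slc7a3*, which were called higher. The part of upstream ATGs in the changes was not tested.

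Promoter sequences were searched for TGATGNAA, the core of the element bound by ATF4 with C/EBP proteins, on both strands of the window from 250 bases before to 50 bases after an annotated RefSeq start. Of the 9 genes, 5 had an entry: *Slc1a4*, *Slc3a2* (at an internal start), *Slc38a2*, *Slc7a1* and *Slc7a6*. The letters were found in 1 of the 5, *Slc1a4*, in 2.89% of the 10193 genes of the table with an entry, and in 3.97% of all 32851 promoters. They were also found in *Slc7a11*, which has no values here. Both stretches are shown with the motif in capitals, 5′ to 3′ on the transcribed strand of GRCm38.p6, because *Slc1a4* is the measured transporter gene that holds the letters and *Slc7a11* is a further one of the 10. That of *Slc1a4* is chr11:20332710-20332747, in which the match runs across the annotated start, and that of *Slc7a11* is chr3:50443623-50443709, with a match on each strand. The window of *Slc7a11* belongs to an internal start, well inside the RefSeq span of the gene.
Slc1a4: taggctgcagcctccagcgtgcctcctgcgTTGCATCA
Slc7a11: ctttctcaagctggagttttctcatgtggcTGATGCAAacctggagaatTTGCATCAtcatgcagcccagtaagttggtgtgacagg
A match describes the letters in this window only. *Slc7a1*, *Slc38a2*, *Slc3a2* and *Slc7a6* were called higher without a match there.

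Other transporters and the pathways around amino acid uptake were read from hand-written lists, beside the 27.7% of all genes that were higher and the 25.0% that were lower. Of 36 further plasma membrane amino acid transporters only 9 had a row, of which 3 (33.3%) were higher, a share near that of all genes, and 0 were lower (median log2 fold change 0.11). *Slc38a6* (1.22) and *Slc43a1*, a system L transporter that works without SLC3A2 (0.79), were higher. The third was *Slc6a9*, the glycine transporter GlyT1, with means of 0.758 ± 0.505 and 9.79 ± 1.67 normalised reads (SD, n = 3), which like *Slc7a3* has a row through the cKO-labelled group. The RefSeq spans of *Slc6a9*, *Slc38a6* and *Slc43a1* each overlap another gene, as do those of *Slc38a1*, *Sfxn3*, *Slc15a3*, *Slc15a4*, *Fnip2*, *Gsr*, *Bcat1*, *Gls2*, *Bckdhb* and *Slc5a3* among the genes named here. *Slc43a2*, the other gene of that system L pair, had a log2 fold change of 0.11 and was not called (limma adjusted p 0.414). Of 12 mitochondrial carriers 4 (33.3%) were higher and 2 (16.7%) were lower, which is also near the shares of all genes, with the glycine carrier gene *Slc25a38* (0.73), the glutamate carrier gene *Slc25a22* (0.71) and the sideroflexins *Sfxn2* (0.71) and *Sfxn3* (0.58) among the former. Of 10 lysosomal transporters 5 were higher and 1 was lower. *Slc38a7* (1.17), *Slc15a4* (0.88) and *Slc36a4* (0.65) were higher and *Slc15a3* was lower (-0.63).

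Genes of the response to amino acid shortage were mostly higher. Of 21 genes of the GCN2 and ATF4 list with a row, 15 (71.4%) were higher and 1 (4.76%) was lower, with a median log2 fold change of 0.75. *Chac1* and *Vldlr*, both among the 15, have rows through the cKO-labelled group, and of the other 19 genes 13 were higher. *Atf4* itself went from 76.8 ± 8.78 to 198 ± 12 normalised reads (SD, n = 3, log2 fold change 1.36, limma adjusted p 6.54e-10). The asparagine synthetase gene *Asns* (3.31), *Ddit3* (3.29), *Trib3* (3.15) and *Chac1* (2.69) had the largest changes of the list. The locus of *Ddit3* overlaps 2 other genes, and *Chac1* had a Ctrl mean of 0.152 ± 0.175. Several of these genes were known to be higher when the list was written. Of the 36 genes that carry amino acid signals to mTORC1, 13 (36.1%) were higher and 10 (27.8%) were lower (median 0.08), near the shares of all genes. *Castor1*, 1 of the 13, has its row through the cKO-labelled group. *Ddit4* (1.86, limma adjusted p 0.0443), *Fnip2* (1.69), and the leucine sensor gene *Sesn2* (1.49) had the largest changes among those whose groups did not overlap. Of the other sestrin genes *Sesn1* was higher (0.70) and *Sesn3* was lower, from 32.8 ± 5.62 to 18.9 ± 1.08 normalised reads (SD, n = 3, log2 fold change -0.75, limma adjusted p 8.84e-05). Overlaps of the *Sesn1* and *Sesn3* loci were not examined.

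Among genes that use the imported amino acids, 4 of 11 genes of glutathione and cysteine use (36.4%) were higher and 5 (45.5%) were lower, with a median log2 fold change of -0.36. *Gclc*, the catalytic subunit gene of the first step of glutathione synthesis, went from 217 ± 22.5 to 81.2 ± 6.84 normalised reads (SD, n = 3, log2 fold change -1.40, limma adjusted p 5.24e-10). *Gpx1* was also lower (-0.71), while *Gsr* (1.22), the glutathione reductase gene, and *Ggct* (0.72) were higher. Of 13 genes of glutamine and branched-chain amino acid use 5 (38.5%) were higher and 4 (30.8%) were lower, near the shares of all genes. *Bcat1*, which encodes the cytosolic transaminase of leucine, isoleucine and valine, rose from 106 ± 23.5 to 368 ± 19.6 (SD, n = 3, log2 fold change 1.81, limma adjusted p 2.54e-07). *Gpt2*, the mitochondrial alanine transaminase gene, had a log2 fold change of 2.43, *Gls2* of 0.61 and *Bckdhb* of -0.44.

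Transporters of other nutrients had a median log2 fold change close to that of the amino acid transporters, 0.50 against 0.53. Of 16 sugar, monocarboxylate, nucleoside and related transporters 10 (62.5%) were higher and 2 (12.5%) were lower. *Slc16a7* (1.38), the nucleoside transporters *Slc29a3* (1.36) and *Slc29a2* (1.04) and the inositol transporter *Slc5a3* (1.33) had the largest changes. The lower ones were the lactate transporter gene *Slc16a1*, from 453 ± 14.3 to 264 ± 9.75 normalised reads (SD, n = 3, log2 fold change -0.78), and the glucose transporter gene *Slc2a1*, from 17.8 ± 2.05 to 11.3 ± 2.47 (log2 fold change -0.63). Both were named after their values were seen.

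**Figure D4:**
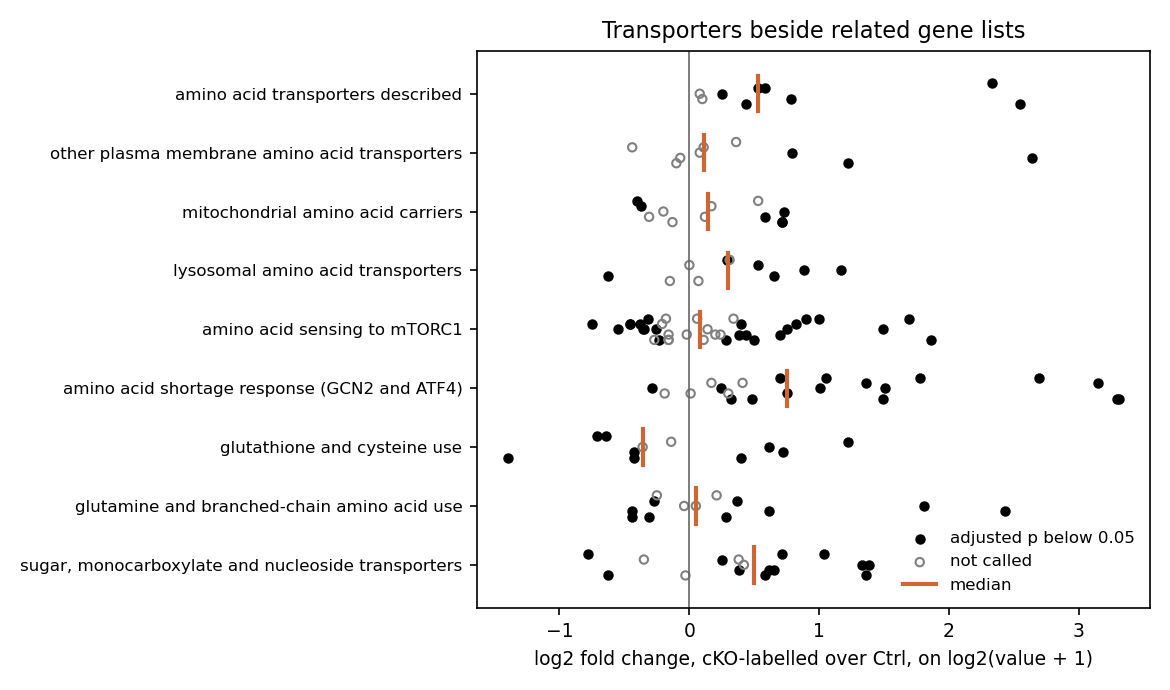
Log2 fold change (cKO-labelled over Ctrl) of each gene with a row in the 9 transporter genes described and in 8 related lists, with filled points for an adjusted p below 0.05, open points otherwise, and a bar at each median. The shortage response list has its median at 0.75 and the glutathione and cysteine list at -0.36, while the transporter genes have theirs at 0.53.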

How the data were processed

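RNA-seq of early LPre-B cells was available as 1 table for 6 libraries. Per the labels and the study's methods, the authors depleted ribosomal RNA, trimmed reads with cutadapt 4.0, aligned them to mm10 with HISAT2 (single end, without strand, from a directional library kit), counted them per gene with featureCounts 2.0.1 and used limma 3.48.0. The authors deposited a linear signal per Entrez ID. Dividing a column by its smallest value gave odd whole numbers, so a value is reads plus 0.5 over a library size set by the authors. Whole reads were recovered for 100.0% of values, within 0.01 reads or, for large counts, a rounding error in proportion to the count. Symbols came from RefSeq GRCm38.p6 for 13008 IDs and from GENCODE M21 for 3, and 415 stayed unnamed. Transcript lengths came from GENCODE M21 and promoters from RefSeq GRCm38.p6.

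Sample titles gave the groups and the replicate numbers. Limma 3.58.1 (R 4.3.3, eBayes with trend and robust estimation) was run on log2(value + 1) with group as the only term, and fold changes on this scale understate those of low genes. Ratios between 2 members used exact two-sided permutation of the 6 libraries (20 assignments), with Benjamini-Hochberg adjustment over the 7 that could be computed. Libraries were counted as separate samples, since the study describes its replicates as biological and no 2 libraries of a group agreed within counting noise (chi-square over degrees of freedom, 4.39 to 22.02), which does not by itself show separate animals. The scripts were tested on simulated data. The members, the lists and the tests were chosen with earlier results of these data known. Named genes are the members, *Upf1*, genes that overlap a member or start within 2000 bases of its start, and at most 4 genes per list by absolute log2 fold change among called genes whose groups did not overlap. Marker genes were named as checks, and *Slc43a2*, *Atf4*, *Sesn1*, *Sesn3*, *Slc16a1* and *Slc2a1* after their values were seen. Alternatives were 2 other scalings, a pseudocount of 0.1, a minimum mean log2 value of 1, a replicate block, eBayes without trend or robust estimation, voom, edgeR 4.0.16 and DESeq2 1.42.0 on recovered reads, and leaving out each library. Limma on the values called 3725 genes higher and 3351 lower, voom 3674 and 3337, edgeR 3651 and 3343, and DESeq2 3312 and 3281.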

Additional observations from a re-analysis of the deposited data

How the results depend on the processing

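Of the 15 alternatives, none called a transporter gene lower, and between 6 and 9 were called higher. Log2 fold changes reversed only with median centring, for *Slc1a5* (-0.01) and *Slc38a1* (-0.03), which are not called in either fit. Leaving out each library gave 6 to 7 transporter genes higher. The 6 ratios between transporter genes that do not include *Slc7a3* kept their direction in the alternatives run.

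With scaling to total reads the median over all genes was 0.19 (log2), against 0.01 with the deposited scaling, and 1936 of all genes were lower (14.4%, and 72.8% of called genes were higher, against 52.6% with the deposited scaling and 40.7% with median centring), 5 further plasma membrane transporters and 7 mitochondrial carriers were higher, and 0 mitochondrial carriers, 3 mTORC1 signal genes, 0 shortage response genes, 3 glutathione and cysteine genes and 0 glutamine and branched-chain genes were lower. Median centring gave 1 further plasma membrane transporter and 2 shortage response genes lower, and DESeq2 gave 2 of the latter. With 1 library left out, lower counts ran from 0 to 1 for the further plasma membrane transporters (1 without Ctrl library 1 or cKO-labelled library 2), from 1 to 2 for mitochondrial carriers (1 without Ctrl library 3), from 6 to 9 for mTORC1 signal genes (6 without cKO-labelled library 2), from 1 to 2 for the shortage response (2 without Ctrl library 1) and from 2 to 5 for glutamine and branched-chain genes (2 without cKO-labelled library 2). Of the last list 3 to 5 were higher (3 without cKO-labelled library 1). The causes were not tested.

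Same-numbered libraries did not deviate together (correlations of 0.089, -0.029 and -0.032 over 12323 genes), so they were not treated as pairs. The column names number the libraries of a pair consecutively, but what those numbers mark is not stated. With a replicate block 3668 of all genes were higher and 3321 were lower, 7 transporter genes were higher, and 1 further plasma membrane transporter was lower. For those 6 ratios the paired sign-flip test gave 0.25, the smallest p that 3 pairs allow.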
